A study of Mus musculus with 2 samples.

Results

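The cells described here are C1q-positive cells of the mouse cochlea with few MHC class II transcripts. They were taken from a single-cell RNA-sequencing study of cochlear cells selected for CD11b, a surface integrin of myeloid cells, with and without an implanted electrode. A cell barcode belonged to the class if it had at least 200 genes detected, at most 10% of its unique molecular identifiers (UMIs, each standing for 1 captured RNA molecule) from mitochondrial genes, and at least 5 UMIs of C1qa, C1qb and C1qc together. It also had to hold fewer than 50 UMIs of H2-Aa, H2-Ab1, H2-Eb1 and Cd74 together, fewer than 5 of Spp1, Gpnmb, Mmp12 and Mfge8, fewer than 3 of Cd79a and Cd79b, and fewer than 10 of Ctsk. By this rule 209 of 6662 filtered cells were members: 111 of 3149 in the implanted library and 98 of 3513 in the non-implanted library. The values that chose the cells are the readout itself, so differences in the rule's genes are given as description.

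Each group was a single library, so no difference below has a replicate check and no test across samples was possible. Intervals are 95% intervals for counting error only. Both libraries came from C57BL/6J mice carrying the CX3CR1+/GFP and Thy1+/YFP alleles, with males and females pooled, and both were selected for CD11b from the cochlea. The GFP allele is a knock-in at Cx3cr1, so every animal, controls included, carried 1 disrupted copy of that gene. The implanted cochleae held an electrode and were collected 33 days after implantation according to the design text. The extraction protocol among the labels instead describes newborn and older mice and dissection of the stria vascularis and mentions no implant, so the age of the animals and the dissected tissue rest on the design text and the tissue label. The labels do not say whether the non-implanted cochleae were the opposite ears of the same animals, how many animals were pooled, or which of the 2 kinds of electrode array named in the series title was used.

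C1q is the recognition subunit of the classical complement pathway. It is built from the products of C1qa, C1qb and C1qc, and tissue-resident macrophages make most of it. Apolipoprotein E, encoded by Apoe, carries lipid out of macrophages. MHC class II molecules present peptides to CD4 T cells, and Cd74 encodes the invariant chain that accompanies them. Resident macrophages of many tissues occur in forms with high and with low MHC class II, and the temporal bone around the cochlea holds marrow, where neutrophils and red cells are made.

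The 100 bases before the RefSeq start of 4 genes are shown because the rule separates cells by C1q against MHC class II transcripts and because P2ry12 marked one set of members described further on. They are not the full set: C1qc also had an entry and is not shown, and C1qa and H2-Ab1 had no entry. Sequences are from RefSeq on GRCm38.p6, each written on the strand of its gene. Capitals in the first pair mark CTGATTGG, the form of the Y box found in MHC class II promoters, and capitals in the second pair mark AGGAAGT or its reverse complement ACTTCCT, a core of the kind bound by PU.1 and other ETS factors. The first base of the marked motif lay 51 bases before the start in H2-Aa, 62 in H2-Eb1, 53 in C1qb and 52 in P2ry12.
H2-Aa, chr17:34287824-34287923, minus strand: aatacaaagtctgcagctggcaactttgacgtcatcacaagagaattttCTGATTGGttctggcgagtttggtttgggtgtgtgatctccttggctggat
H2-Eb1, chr17:34305767-34305866, plus strand: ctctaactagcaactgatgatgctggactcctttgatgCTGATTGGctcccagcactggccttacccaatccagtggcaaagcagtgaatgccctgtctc
C1qb, chr4:136886201-136886300, minus strand: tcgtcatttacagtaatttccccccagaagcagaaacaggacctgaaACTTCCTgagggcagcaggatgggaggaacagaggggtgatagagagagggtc
P2ry12, chr3:59262986-59263085, minus strand: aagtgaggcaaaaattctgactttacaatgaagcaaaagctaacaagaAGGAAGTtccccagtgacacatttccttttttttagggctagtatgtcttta
Searched on both strands, CTGATTGG was present in 826 of 32851 promoter windows of the same length (2.51%) and AGGAAGT in 1203 (3.66%). A match describes the letters of these windows and is not evidence of binding.

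The name "macrophage" was not borne out in every member. Macrophage genes were read in both libraries, with 381 and 407 UMIs of Csf1r, the receptor of the macrophage growth factor CSF1, in the implanted and non-implanted members, and 137 and 144 UMIs of Adgre1, which encodes F4/80. They were not read in every member. By the subclusters described further on, Csf1r was read in 8 of 25 cells of subcluster 5 and 13 of 37 of subcluster 1. It was read in 32 of 35 cells of subcluster 2 and 19 of 19 of subcluster 6. In subclusters 4 and 7 it was read in 13 of 27 and 9 of 17 cells. In 3, 8 and 9 it was read in 20 of 30, 8 of 11 and 6 of 8. Adgre1 was read in 31 of 35 cells of subcluster 2, 8 of 11 of subcluster 8 and 6 of 8 of subcluster 9. Its share in the other subclusters ran from 2 of 17 cells in subcluster 7 to 12 of 27 in subcluster 4. In 36 of 111 implanted members (32.4%) and 31 of 98 non-implanted members (31.6%), however, more than 5% of the UMIs came from a list of neutrophil and granulocyte precursor genes, with medians of 19.5% and 25.9%. These cells, called granulocyte-rich below, held a median of 27.6 and 17.5 C1q UMIs per 10000 UMIs, against 134 and 120 in the other members. Their median for Apoe was 45.3 and 22.2 per 10000, against 288 and 123. Only 0 and 2 of the granulocyte-rich cells had fewer than 1000 UMIs, and against the other members with at least 1000 UMIs the gap was smaller, with medians there of 90.8 and 71.8 for C1q and 131 and 67.3 for Apoe. The remaining 75 implanted and 67 non-implanted members, called granulocyte-poor, are given beside every main result. Of the cells near that limit, 2 and 5 lay between 3% and 5%, and 6 and 1 lay between 5% and 7%.

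Transcripts of other cell types differed between these sets. The neutrophil list summed to 110725 and 125299 CPM (UMIs of a gene per 1e6 UMIs of the cells summed) over all implanted and non-implanted members, to 3949 and 3943 in the granulocyte-poor members, and to 305078 and 313286 in granulocytes of the same libraries, here the cells with more than 5% of such UMIs and no C1q UMI. Of its 16 genes 15 were above 0 in each library, and Stfa2 was at 0 in both. The erythroid list summed to 8896 and 4715 CPM, with more than 1% of UMIs in 2 members of each library. Markers of other lineages were sparse. Among the T and NK cell genes Cd3e, Cd3g, Trac, Klrb1c and Ncr1 were at 0 in both libraries, as were Xcr1 and Ccr7 among dendritic cell genes, Col1a2, Col3a1, Dcn and Lum among fibroblast genes, and Cldn5 and Plvap among endothelial genes. Itgam, which encodes CD11b itself, had 0 UMIs in 1 of its 2 feature rows and 2 and 4 UMIs in the other, so the sort could not be checked on that transcript. Whether granulocyte transcripts came from the same cell, a second cell under the same barcode or free RNA was not tested.

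Depth varied widely within the class. Implanted members held a median of 3056 UMIs (503 to 37104) and 1297 genes, and non-implanted members a median of 3360.5 UMIs (522 to 27339) and 1504 genes. All filtered cells had medians of 4371 and 4238 UMIs. Members with fewer than 1000 UMIs numbered 32 and 26, of which 32 and 24 were granulocyte-poor. Thus 42.7% of the granulocyte-poor implanted members and 35.8% of the non-implanted ones were shallow. Their medians were 628 and 718 UMIs and 401 and 409.5 genes. Their median was 211 and 178 C1q UMIs per 10000 against 52.7 and 37.1 in the deeper members, a gap that the rule sets in part, since 5 C1q UMIs are a larger share of a shallow cell. Ribosomal protein genes took 5.29% and 5.88% of their UMIs against 2.08% and 2.25%, and mitochondrial genes 2.29% and 2.41%.

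Because the MHC class II limit is a count of UMIs and not a share, it is looser for shallow cells. The median was 2 implanted and 4.5 non-implanted MHC class II UMIs per member, and 25 (22.5%) and 21 (21.4%) members held none. At least 1% of all UMIs were MHC class II in 23 implanted members (20.7%) and 21 non-implanted members (21.4%). Most of these were shallow: the 1% share was reached by 20 of 32 shallow implanted members (62.5%) against 3 of 79 deeper ones (3.80%), and by 12 of 26 shallow non-implanted members (46.2%) against 9 of 72 (12.5%). A shallow member therefore need not be low in MHC class II relative to its other RNA. At the edges of the rule, 6 and 8 members held 40 to 49 MHC class II UMIs while 3 and 6 cells just outside held 50 to 59. Similarly 14 and 17 members held 5 or 6 C1q UMIs, and 26 and 23 cells that met the other limits held 3 or 4.

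**Figure D1:**
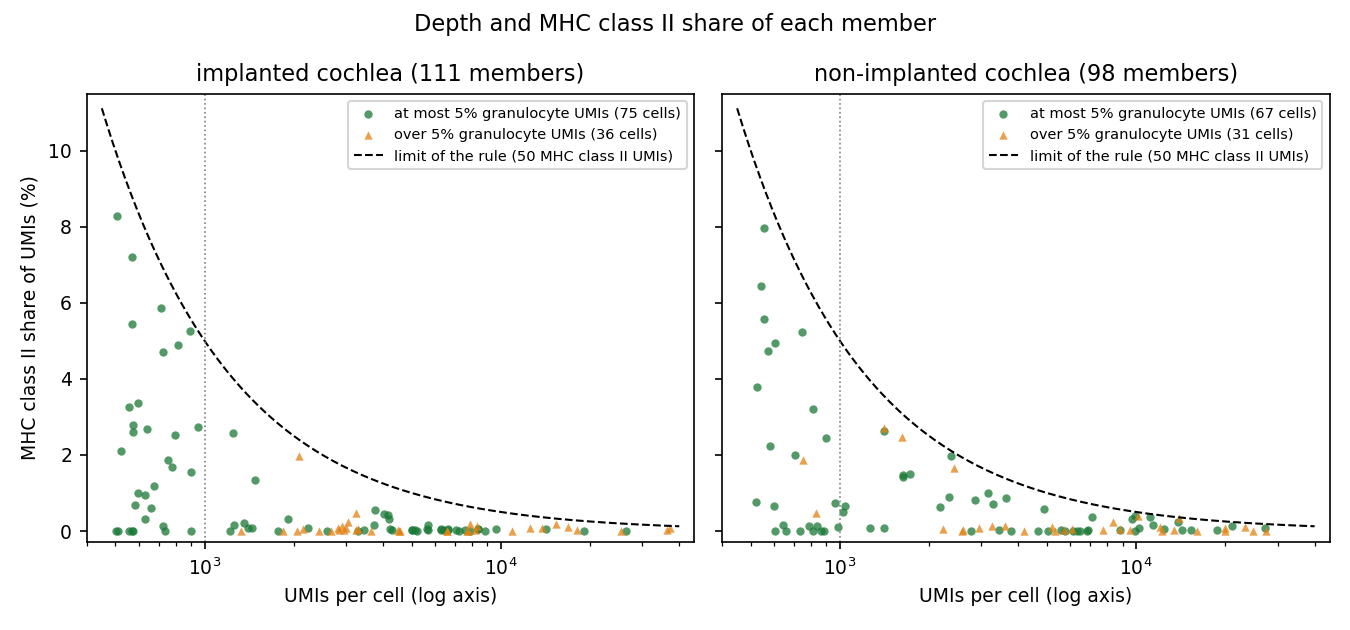
UMIs per cell (x axis, log scale) against the share of UMIs from the 4 MHC class II genes of the rule (y axis, percent) for each member, 1 panel per library. Green circles are granulocyte-poor and orange triangles granulocyte-rich members, the dashed curve is the limit of 50 UMIs and the dotted line marks 1000 UMIs; the high shares lie mostly left of the dotted line, where 62.5% of implanted and 46.2% of non-implanted members reached 1%.

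The class was a small part of both libraries, and 1 library per group cannot show that the shares were equal. Members were 3.52% of the implanted cells (2.91 to 4.23%) and 2.79% of the non-implanted cells (2.27 to 3.39%), a difference of 0.735 percentage points whose interval, -0.105 to 1.59 points, included 0. The granulocyte-poor members were 2.38% and 1.91%, a difference of 0.475 points (-0.222 to 1.19). Only 6 barcodes occurred in both filtered libraries, and 1 of them was a member.

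Within cells holding at least 5 C1q UMIs, the make-up of the 2 libraries differed more. Of 218 such implanted cells 50.9% were members, 28.4% (62 cells) were over the MHC class II limit and 17.9% (39 cells) were over the limit for Spp1, Gpnmb, Mmp12 and Mfge8. Of 225 non-implanted cells the shares were 43.6%, 49.3% (111 cells) and 4.89% (11 cells). The MHC class II high share was thus 20.9 points lower in the implanted library, with a difference of -20.9 points (-29.4 to -11.9). The share of the Spp1 group was higher by 7.19 to 19.0 points, while the share of members differed by 7.36 points with an interval that included 0 (-1.92 to 16.5). Counting only granulocyte-poor cells with low or high MHC class II, 75 of 130 implanted cells (57.7%) and 67 of 157 non-implanted cells (42.7%) were low, a difference of 15.0 points (3.40 to 26.1). Of the cells with more than 5% granulocyte UMIs, 2.24% in the implanted library (53 cells) and 1.89% in the non-implanted library (54 cells) held at least 5 C1q UMIs, and the granulocyte-rich members were 36 and 31 of these.

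The members fell into 9 subclusters, which are numbered and described by leading genes only, because those genes formed them and because most are small. Subclusters 1 (37 cells, led by Retnlg, Il1r2 and Acod1) and 4 (27 cells, led by Camp, Ngp and Ltf) held most of the granulocyte-rich cells, 34 of 37 and 27 of 27. Subcluster 4 was also deep, with a median of 13415 UMIs. Subcluster 2 (35 cells) was led by Cd14, the lipopolysaccharide co-receptor, Pf4, Ms4a7 and the scavenger receptor gene Stab1. Subcluster 3 (30 cells) was led by MHC class II and C1q genes, had a median of 648 UMIs, and held a median of 2.77% MHC class II UMIs. Subclusters 5 (25 cells) and 8 (11 cells) shared Vcam1 and the iron exporter gene Slc40a1. Subcluster 5 had a median of 777 UMIs and was led also by Hmox1, the haem oxygenase that breaks down haem, whereas subcluster 8 had 3622 UMIs and was led by the lipid-sensing receptor Pparg and the phagocytic receptor Mertk.

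Subcluster 6 (19 cells) was led by Nav3, Csmd3, Sparc, Tmem119 and P2ry12. Of these, Tmem119 and P2ry12 are best known from microglia, the macrophages of the brain. P2ry12, a receptor for extracellular nucleotides, was read in 19 of its 19 cells and Sparc, a secreted matrix protein, in 18. Subcluster 7 (17 cells) was led by Ltc4s, Apoe, Cst3 and Ctss and was shallow, with a median of 733 UMIs. Subcluster 9 (8 cells) was the deepest, with a median of 18890.5 UMIs, and was led by S100a4, Prdx2, Kcnn4 and Mki67, the last a gene of dividing cells. It held a median of only 5.14 C1q UMIs per 10000, and 3 of its 8 cells had more than 1% erythroid UMIs. Every subcluster had cells of both libraries. The implanted and non-implanted cells numbered 23 and 14 in subcluster 1, 19 and 16 in 2, 14 and 16 in 3, 11 and 16 in 4, 13 and 12 in 5, 11 and 8 in 6, 10 and 7 in 7, 8 and 3 in 8, and 2 and 6 in 9. The clustering used all variable genes, those that differ between the libraries included, so these numbers are not compared.

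**Figure D2:**
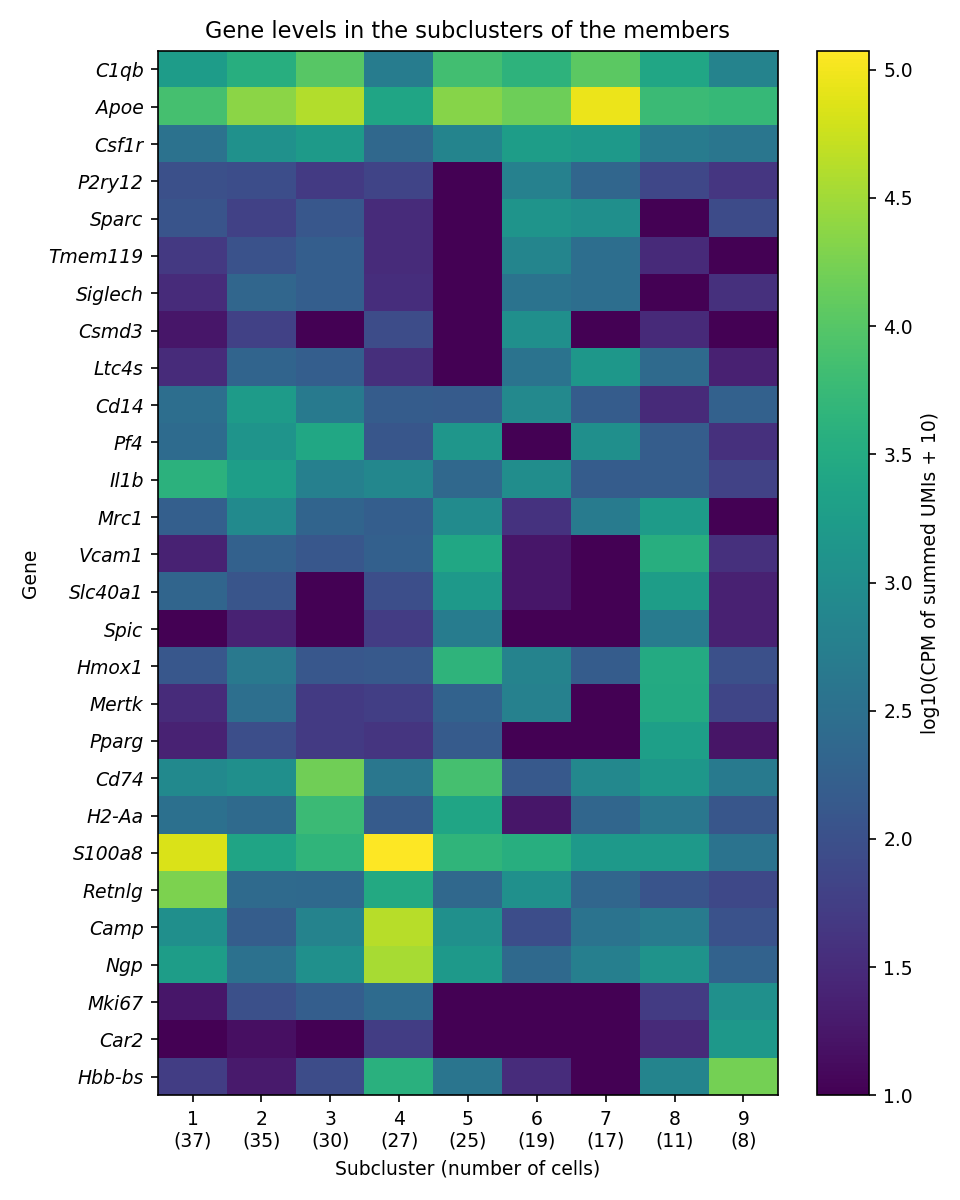
Summed level of 28 genes (rows) in the 9 subclusters of members (columns), as log10 of CPM plus 10 over the cells of both libraries. The neutrophil genes are high in subclusters 1 and 4, P2ry12 and Tmem119 in 6, Vcam1 in 5 and 8, and Mki67, Car2 and Hbb-bs in 9.

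Gene groups were also counted cell by cell, without the subcluster labels. The groups share genes with those that lead subclusters 5, 6 and 8 of these same cells, so they are not an independent check of the subclusters. Among granulocyte-poor members with at least 1000 UMIs, at least 2 UMIs of P2ry12, Sparc, Siglech and Tmem119 were present in 22 of 43 implanted cells (51.2%) and 16 of 43 non-implanted cells (37.2%). At least 2 UMIs of Vcam1, Slc40a1 and Spic, genes of macrophages that recycle red cell iron, were present in 15 (34.9%) and 11 (25.6%). The microglia-gene and iron-recycling groups were found together in 3 and 2 cells. Lyve1, Folr2 and Cbr2, markers of perivascular and interstitial resident macrophages, reached 2 UMIs in 2 and 5 cells. In MHC class II high cells of any depth or granulocyte share, the microglia-gene group reached 2 UMIs in 29.0% of implanted and 21.6% of non-implanted cells. The iron-recycling group did so in 19.4% and 24.3%. In granulocyte-poor members of any depth, the nearer match, the microglia-gene group reached 2 UMIs in 32.0% and 26.9%. There the iron-recycling group did so in 32.0% and 25.4%. Among the granulocyte-poor members with at least 1000 UMIs, none of the groups was reached by 8 implanted (18.6%) and 18 non-implanted cells (41.9%). In the shallow granulocyte-poor members the microglia-gene group reached 2 UMIs in 2 of 32 and 2 of 24 cells, and no group did in 19 and 15, so depth limits what can be said of them.

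Compared with MHC class II high C1q cells, the members held more of several microglia genes in both libraries, as levels summed over cells. Single subclusters differed widely in these genes, and subcluster 6 gave much of the Sparc and Tmem119. Sparc had 139 and 91 UMIs in implanted and non-implanted members, and the 19 cells of subcluster 6 held 167 of them. Those cells also held 94 Tmem119 and 81 P2ry12 UMIs. Subcluster 5 held 0 UMIs of each of the 3 genes, and subcluster 8 held 0, 1 and 3. Fcrls was less confined, with 62 UMIs in subcluster 6 and 92 in subcluster 2. The MHC class II high cells met every other limit of the rule and numbered 62 and 111. The comparison was made within the granulocyte-poor cells of each library, with a gene called at a 2-fold difference on the scale of log2 of CPM plus 10. With all members and all MHC class II high cells, granulocyte-rich ones included, 5.03% of tested genes were called higher and 4.60% lower in the implanted library, and 2.54% and 2.52% in the non-implanted library. Among granulocyte-poor implanted cells, 245 of 5285 genes were called higher (4.64%) and 190 lower (3.60%). Among non-implanted ones 468 of 6579 were called higher (7.11%) and 243 lower (3.69%). In 76 genes the call was higher in both libraries and in 41 it was lower in both, of 5168 tested in both. Of the 15 Cx3cr1 and microglia genes tested, the implanted cells had 8 called higher and 0 lower; the median of their log2 ratios was 1.31, against -0.03 over all genes. The non-implanted cells had 7 called higher and 0 lower, with a median of 0.93 against 0.10. Over all members, granulocyte-rich ones included, the same 15 genes had 5 called higher and 1 lower in the implanted library (median 0.76) and 3 higher and 1 lower in the non-implanted library (median 0.65).

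Sparc ranked first by the smaller of its ratios in the 2 libraries. Its level was 387 CPM in low and 5.74 CPM in high implanted cells, and 271 against 27.1 CPM in non-implanted cells. The ratios were 67.5 (18.2 to 564) and 10.0 (5.74 to 18.6). They are sums to which subcluster 6 gave much of the Sparc, and the difference without that subcluster was not tested. Sparc is also made by fibroblasts and bone cells. Of the other 10 genes of the fibroblast and osteoblast list, Col1a2, Col3a1, Dcn, Lum, Bglap, Bglap2 and Postn were at 0 in all members, Col1a1 had 1 UMI against 0, Pdgfra 0 against 1, and the bone matrix gene Ibsp 0 against 3 in implanted and non-implanted members. Tmem119, a microglial membrane protein, was read at 209 against 43.1 CPM and 192 against 56.0 CPM, ratios of 4.84 and 3.43. Over both libraries subcluster 6 held Tmem119 at 707 CPM. All other members together, granulocyte-rich ones included, held it at 41.8 CPM. The Tmem119 difference without subcluster 6 was not tested either. Olfml3, a secreted glycoprotein, was read at 324 against 63.2 CPM and 224 against 81.3 CPM, ratios of 5.13 and 2.75. The Fc receptor-like gene Fcrls had ratios of 3.41 and 3.05. For P2ry12 the log2 ratio was 0.90 and 1.47, so it was called in the non-implanted library only, and a difference between the libraries was not tested.

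Not every gene of that list stood apart. Cx3cr1, the fractalkine receptor and the locus of the GFP allele, had log2 ratios of 0.45 and -0.09. Csf1r had 0.34 and 0.21, and the cathepsin gene Ctss 0.38 and -0.20. Siglech, a sialic acid-binding lectin gene, had 43 UMIs against 0 in implanted cells, so that its plotted ratio depends on the 10 CPM added. P2ry6 was at -0.66 and -0.32 and Tgfbr1 at -0.08 and -0.83, none past the 2-fold limit. The protease inhibitor gene Cst3 had 1.38 and 0.90. Outside the list, Ltc4s, the synthase of leukotriene C4, was read at 217 against 32.5 CPM in non-implanted cells, and its ratios were 7.95 in implanted and 6.69 in non-implanted cells. The mRNA of the adhesion phosphatase gene Ptprm was at 235 against 48.8 CPM and 299 against 81.3 CPM.

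**Figure D3:**
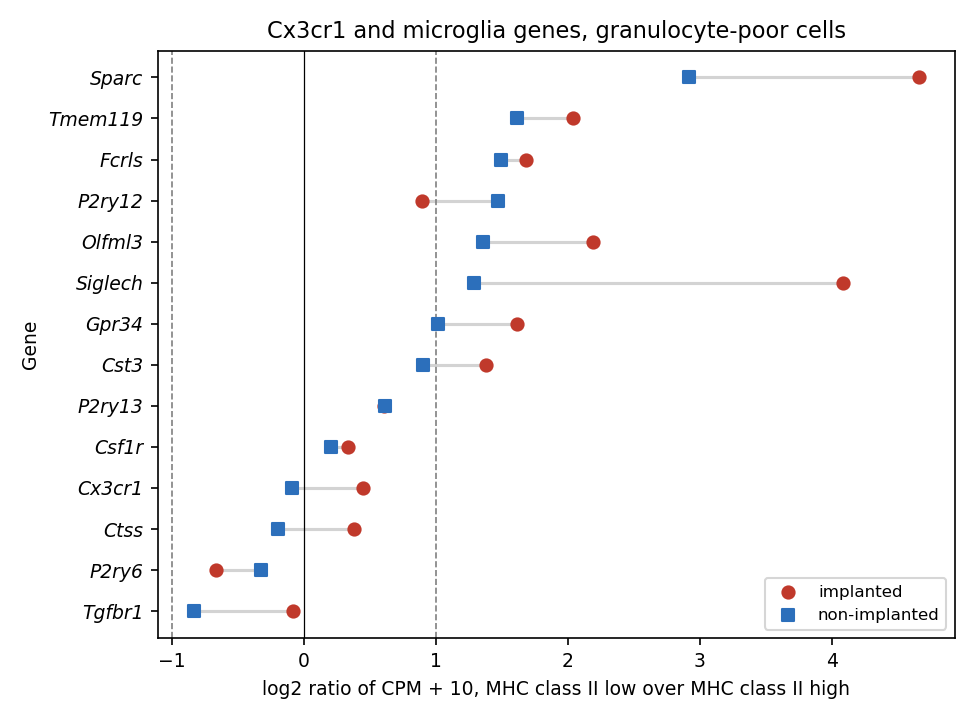
Log2 ratio of CPM plus 10 between granulocyte-poor members and granulocyte-poor MHC class II high cells (x axis) for 14 of the 15 tested Cx3cr1 and microglia genes (rows), with red circles for the implanted and blue squares for the non-implanted library. Sparc lies farthest to the right in both libraries, at 4.66 and 2.92, while Cx3cr1 and Csf1r lie near 0.

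The genes lower in the members in both libraries included H2-DMb1 and lectin genes. H2-DMb1, which helps load peptides onto MHC class II and was not a rule gene, was at 82.0 against 436 CPM in implanted and 101 against 555 CPM in non-implanted cells. Pid1 was at 551 against 1769 CPM and 879 against 2589 CPM. The C-type lectin gene Mgl2 had 3 UMIs against 32 and 10 against 108, and Clec10a, a lectin gene of the same family, had 0 against 30 and 14 against 76. Runx3, a transcription factor, had 9 against 47 and 8 against 42 UMIs. Of the 11 MHC class II presentation genes tested, 6 and 8 were lower and 0 higher, a count fixed in part by the rule. The cell cycle list differed between the libraries in its counts, 4 of 15 tested genes higher in the implanted library and 18 of 22 in the non-implanted one, and so did the iron-recycling list, 2 of 16 and 9 of 18. The erythroid markers moved alongside, with 7 of 7 tested genes higher in the implanted and 8 of 8 in the non-implanted library, and their part in these counts was not tested.

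Between the libraries, the implanted members held more Apoe, Cd14, Il1b, Ccl4 and Cxcl2 transcripts, and the non-implanted members more Tuba1b and Nrp2 transcripts. Most of the non-implanted Nrp2 UMIs came from the few cells of subcluster 9, as given further on. All of these differences are in summed levels, so deep cells weigh most. Subcluster 9, with 2 implanted and 6 non-implanted cells, had a median of 18890.5 UMIs per cell. Over both libraries it held Apoe at 5383 CPM and Cd14 at 176 CPM. Its 6 non-implanted cells held 9932 to 27179 UMIs each and 1.31 to 52.6 Apoe UMIs per 10000. The median over all non-implanted members was 65.4. Its 2 implanted cells were at 17.4 and 308. Ratios without subcluster 9 were taken for the cell cycle list only. Its part in the other differences, the Apoe call included, was not tested. At the same 2-fold limit, 126 of 7062 tested genes were called higher in the implanted members (1.78%) and 157 lower (2.22%), with a median log2 ratio of -0.04 over all genes. In the granulocyte-poor members 179 of 5385 were called higher (3.32%) and 343 lower (6.37%), with a median of -0.09, and with at least 1000 UMIs per cell the shares were 3.84% and 6.87%. Single cells carried many of these calls: 1 cell gave more than 25% of the UMIs of the higher library in 47 of the 126 and 81 of the 157, and in 84 of the 179 and 203 of the 343. After the top cell of each library was left out, 95 of the 126 and 114 of the 157 were still past the limit.

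Apoe was read in 109 of 111 implanted and 92 of 98 non-implanted members. Its lowest, median and highest values per 10000 UMIs were 0, 131 and 3039 in implanted cells and 0, 65.4 and 1894 in non-implanted cells, so the 2 ranges overlapped almost fully. Summed over cells the level was 14922 against 7425 CPM, a ratio of 2.01 (1.94 to 2.08). The ratio was 2.07 without the top cell of each library and 2.16 (2.08 to 2.25) in granulocyte-poor members. It was 1.32 (1.19 to 1.45) in shallow members and 2.10 in deeper ones. In MHC class II high cells the ratio was 1.26 (1.21 to 1.30), and in granulocytes without C1q UMIs, where the level was 79.3 against 53.5 CPM, it was 1.48 (1.35 to 1.63). After thinning each cell to 500 UMIs, Apoe was detected in 84.7% and 73.5% of members (98.2% and 93.9% before thinning) and in 4.39% and 2.67% of granulocytes without C1q (23.3% and 13.6% before, at a median depth of 3976 UMIs in both libraries).

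The subclusters did not share 1 ratio for Apoe. It was 2.36 in subcluster 1, 1.44 in 2, 1.08 in 3, 1.51 in 4 and 0.711 in 5. In subcluster 6 the 11 implanted cells ranged from 0 to 408 Apoe UMIs per 10000, with a median of 127, while 7 of the 8 non-implanted cells lay between 0 and 6.45 and the last was at 336. That 1 cell gave 94.9% of the non-implanted Apoe UMIs there. In the shallow subcluster 7 the implanted cells ranged from 262 to 3039 and the non-implanted ones from 0 to 1894. In subcluster 8 the implanted cells ranged from 26.9 to 131 and the non-implanted ones from 13.3 to 88.3. The 2 implanted cells of subcluster 9 were at 17.4 and 308, and its 6 non-implanted cells lay between 1.31 and 52.6. Other genes of lipid export and uptake did not all differ alike. Abca1 had 169 against 88 UMIs and a log2 ratio of 0.97, just under the limit, and 1.10 in granulocyte-poor members. Abcg1, another cholesterol exporter, had 55 against 21 UMIs, a ratio of 2.75 (1.64 to 4.79). The lipid-sensing receptor gene Trem2 had 263 against 223 UMIs (log2 0.30), and the lipase gene Lpl had 52 against 134 UMIs (log2 -1.21), of which 1 cell gave 32.8%. Of 17 apolipoprotein and lipid handling genes 4 were called higher (Apoe, Abcg1, Apoc1 and Fabp5) and 1 lower (Lpl), with a median of 0.16, and 1 cell gave 36.4% of the Apoc1 and 61.6% of the Fabp5 UMIs.

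Cd14 was detected in 53 implanted and 33 non-implanted members, at 739 against 326 CPM, a ratio of 2.27 (1.91 to 2.70), with 21.1% of the non-implanted UMIs from 1 cell. In granulocyte-poor members it was at 1367 against 460 CPM, a ratio of 2.97 (2.45 to 3.62). In granulocyte-rich members the ratio was 1.01 (0.669 to 1.53). The gene was also higher outside the class: at 809 against 500 CPM in MHC class II high cells (ratio 1.62) and at 161 against 80.4 CPM in granulocytes (ratio 2.00, 1.86 to 2.15). After thinning to 500 UMIs it was detected in 22.5% and 11.2% of members and in 7.66% and 3.85% of granulocytes without C1q. The difference in Cd14 was therefore not limited to these cells, and free RNA as a part of it was not tested.

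Several cytokine and chemokine genes differed in the same direction. The implanted members had more Il1b, which encodes interleukin-1 beta: 1005 against 437 UMIs in 62 and 40 cells, or 1773 against 734 CPM, a ratio of 2.42 (2.16 to 2.71). In granulocyte-poor members the ratio was 2.26 and in granulocytes 1.04. Thinned to 500 UMIs, however, Il1b was detected in 34.2% and 26.5% of members against 34.5% and 34.6% of granulocytes without C1q, so detection of this gene in a member does not set it apart from those cells. The chemokine genes Ccl3, Ccl4 and Cxcl2, which draw monocytes or neutrophils, had ratios of 1.93 (1.67 to 2.22), 2.30 (2.06 to 2.57) and 2.04 (1.85 to 2.25). In granulocyte-poor members they were 1.73, 2.35 and 2.53. In granulocytes they were 0.992, 1.08 and 1.26. For Ccl4, 1 granulocyte-poor cell gave 27.5% of the UMIs. Acod1, which encodes the itaconate-making enzyme, had 261 against 112 UMIs (ratio 2.45, 1.96 to 3.08). In granulocyte-poor members it had 67 against 12, and 1 cell gave 31.3%. Over both libraries, subclusters 1 and 4 held 219 and 83 Acod1 UMIs, and these subclusters held most of the granulocyte-rich cells.

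By list, 5 of 14 chemokine ligands were called higher (Ccl4, Cxcl2, Ccl5, Ccl8 and Cxcl10) and 0 lower, with a median of 0.72, and in granulocyte-poor members 6 of 12, with a median of 1.01. Markers of other cells also differed in the granulocyte-poor members. Of 9 tested monocyte markers 6 were called higher in the implanted library (median 1.14), of 9 granulocyte precursor markers 5 (median 1.28) and of 4 osteoclast markers 2 were called lower (median -1.12). In each of the called genes 1 cell gave more than 25% of the UMIs of the higher library, as with Ly6c2, 99 against 9 UMIs with 49.5% from 1 cell, and Prtn3, 183 against 1 UMI with all from 1 cell. The monocyte list summed to 2306 against 1258 CPM, the precursor list to 2898 against 908 CPM and the osteoclast list to 283 against 687 CPM. Their part in the Cd14, Il1b and chemokine differences was not tested. Several of the chemokine calls in all members rested on 1 cell, which gave 96.0% of the UMIs of Ccl8, 88.4% of Ccl5 and 61.6% of Cxcl10. Of 18 inflammatory cytokines and mediators 3 were called higher (Il1b, Acod1 and Cd14) and 0 lower, with a median of 0.47. Members of that list that missed the limit included Nlrp3 (405 against 255 UMIs, log2 0.73), Tlr2 (160 against 86, 0.92), Il1rn (112 against 70, 0.70) and Tnf (93 against 114, -0.21). Of 13 interferon-induced genes 3 were called higher (Cxcl10, Rsad2 and Zbp1) and 0 lower, with a median of 0.26, and 1 cell gave 47.4% of the Rsad2 and 31.6% of the Zbp1 UMIs. The 15 microglia genes had 0 calls in either direction and a median of 0.26; P2ry12 had 67 against 80 UMIs and Tmem119 71 against 66. Of 9 complement genes 0 were called, with a median of 0.24, and 0 of the 12 Fc receptor and adaptor genes, with a median of 0.32. The rule genes C1qa, C1qb and C1qc had 1561 against 1070, 1448 against 1111 and 958 against 826 UMIs.

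**Figure D4:**
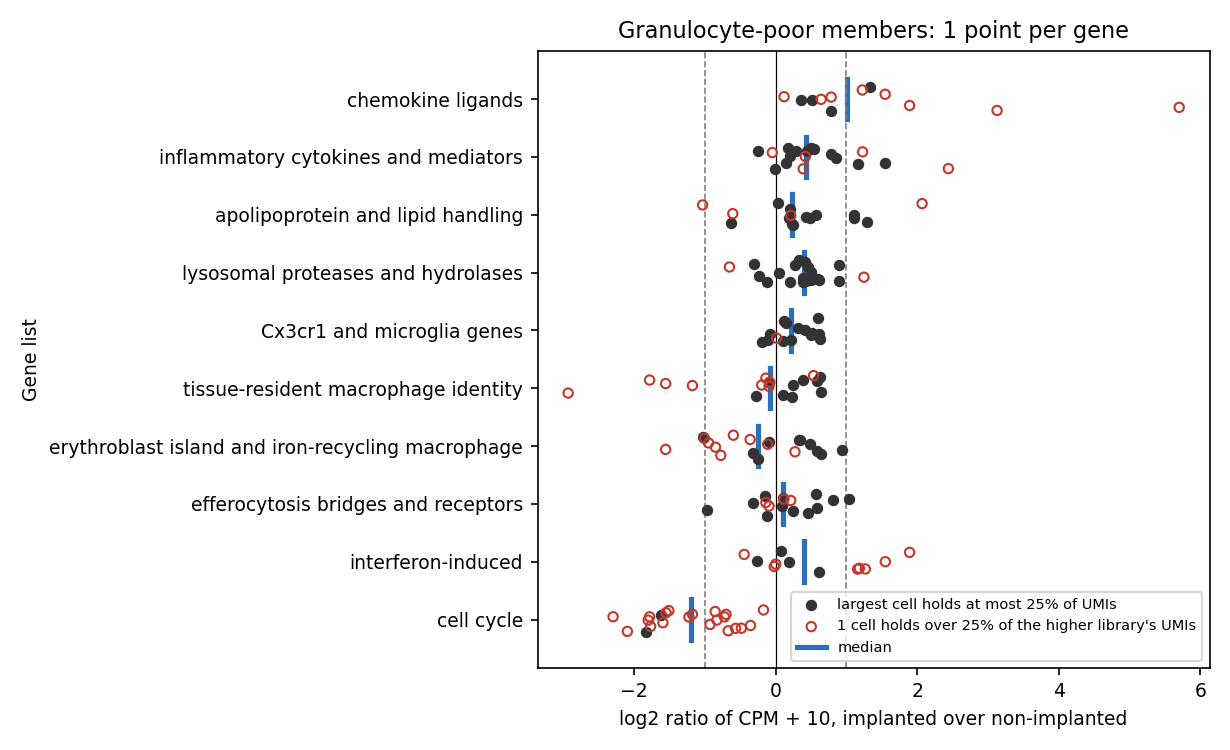
Log2 ratio of CPM plus 10, implanted over non-implanted, in granulocyte-poor members (x axis) for each tested gene of 10 lists (rows). Open red points are genes for which 1 cell gave more than 25% of the UMIs of the higher library, blue bars are medians and dashed lines mark the 2-fold limit; the chemokine ligands have a median of 1.01, and the 15 Cx3cr1 and microglia genes all lie inside the limit.

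The genes with the highest ratios between the libraries came from no single list. Gm6977, a processed pseudogene on chromosome X (GRCm38 position 90744546 to 90745062, minus strand), had 174 against 42 UMIs in 70 and 24 members, or 307 against 70.5 CPM, a ratio of 4.35 (3.09 to 6.25). The ratio was 4.69 in granulocyte-poor members, 3.91 in MHC class II high cells and 2.81 (2.53 to 3.12) in granulocytes, so the difference was present in each class named. Reads of a processed pseudogene cannot be told apart with certainty from those of its parent gene. Cst7, the cystatin F gene that activated microglia express, had 30 against 5 UMIs in 15 and 4 cells (ratio 6.30, 2.42 to 20.8). In the Spp1 group it had 23 against 0 UMIs, of 560712 against 78459 UMIs of all genes. In MHC class II high cells it had 3 against 8, of 448699 against 878089. These unequal totals mean that the counts outside the members cannot be compared directly. Vps37b, a subunit of the ESCRT-I sorting complex, had 139 against 52 UMIs in 42 and 29 cells, a ratio of 2.81 (2.03 to 3.94), against 0.933 in MHC class II high cells and 1.15 in granulocytes. Abhd17c, a depalmitoylase gene, had 46 against 12 UMIs (ratio 4.03, 2.10 to 8.35), with 1.02 in MHC class II high cells and 1.07 in granulocytes. Fam46c, a poly(A) polymerase gene, had 110 against 38 UMIs (ratio 3.04), and 2.11 and 1.58 in those 2 classes. The remaining highest genes had small counts: 1810011O10Rik 19 against 2, Gm4149 88 against 31, Arl5c 32 against 9, Prkg1 69 against 24, Cdc42ep2 29 against 8, Osgin2 19 against 4 and Gm9844 51 against 17 UMIs.

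Further genes were among the highest ratios in granulocyte-poor members. Plaur, the urokinase receptor gene, had 98 against 38 UMIs, or 365 against 120 CPM, a ratio of 3.05 (2.08 to 4.56), but 0.736 in granulocyte-rich members and 1.04 over all members. Gpr65, an acid-sensing receptor gene, was at 112 against 31.5 CPM (ratio 3.55). The transcription factor gene Nfil3 was at 93.1 against 25.2 CPM (3.69), and Smim3 at 216 against 56.7 CPM (3.81). Lin54, a subunit of the DREAM cell cycle complex, had 34 against 10 UMIs, and Milr1, an inhibitory immunoglobulin-like receptor gene, 21 against 6. Klf4, a transcription factor gene of the glucocorticoid-responsive list, had a log2 ratio of 0.70 over all members and 1.27 in granulocyte-poor ones. Other genes of the glucocorticoid list did not share this: Il1r2 had a log2 ratio of 1.30 over all members but 0.36 in granulocyte-poor ones, and Tsc22d3, Fkbp5 and Nr3c1 had 0.34, 0.46 and 0.25 over all members. Of 15 genes of that list 3 were called higher (Il1r2, the metallothionein gene Mt1 and Ccl8) and 1 lower (Cd163), with a median of 0.34 over all members and 0.08 in granulocyte-poor ones. Mt1 had 342 against 173 UMIs in 64 and 48 cells, and Ccl8 rested on 1 cell.

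The genes lower in implanted members included several of dividing cells. Plk1, a mitotic kinase, had 6 against 29 UMIs and Aspm, a spindle protein, 5 against 25. In granulocyte-poor members the alpha-tubulin gene Tuba1b had 63 against 234 UMIs, or 235 against 738 CPM, a ratio of 0.318 (0.237 to 0.422), and Tuba1c 22 against 85 UMIs. Over all members Tuba1b had a ratio of 0.399 (0.317 to 0.499), with 0.662 in MHC class II high cells and 0.781 in granulocytes. Of 22 cell cycle genes 0 were called higher and 2 lower in members (Tuba1b and Ccnb1, the latter with 30.0% of its UMIs in 1 cell), with a median of -0.62, and 12 were lower in granulocyte-poor members, with a median of -1.20. More than 1% of UMIs came from this list in 3 implanted and 11 non-implanted members. These counts leaned on few cells: without subcluster 9, 0 of 21 genes of the list were called, with a median of -0.27, and in granulocyte-poor members 3 of 6 were lower with a median of -0.87. Nrp2, a co-receptor of semaphorins and VEGF-C, had 73 against 206 UMIs in 23 cells of each library, a ratio of 0.372 (0.281 to 0.488), of which 2 and 112 UMIs came from subcluster 9. Kcnn4, a calcium-gated potassium channel gene of red cells and lymphocytes, had 9 against 42 UMIs, of which 7 and 38 came from subcluster 9. Nol4l had 4 against 33 UMIs, with 1 and 14 from that subcluster. The other lowest genes, with their UMIs, were Nars2 3 against 20, Rps25-ps1 6 against 28, Prdx4 10 against 38, Vps37c 4 against 21, Fam208b 10 against 37, Zscan29 7 against 28 and Rps13-ps2 18 against 57. In granulocyte-poor members the long non-coding RNA Mir99ahg had 64 against 225 UMIs in 26 and 24 cells. Ppm1l had 13 against 57, the acyl-CoA synthetase gene Acsl1 4 against 27, the mitotic cyclin gene Ccnb2 4 against 25 and Slc35a4 2 against 22.

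Resident macrophage and iron-recycling genes were lower in part. Of 18 resident macrophage identity genes 0 were higher and 4 lower, with a median of -0.09, and each of the 4 rested on 1 cell for more than 25% of its UMIs. Lyve1, a hyaluronan receptor gene, had 1 against 36 UMIs with 63.9% from 1 cell, the folate receptor gene Folr2 5 against 29 with 44.8%, and the carbonyl reductase gene Cbr2 13 against 37 with 35.1%. The haemoglobin scavenger receptor gene Cd163 had 7 against 21 with 66.7%. Mertk and Mrc1 were within the limit at log2 ratios of 0.51 and -0.39. Of 20 iron-recycling genes 0 were called higher and 2 lower (Cd163 and Cd5l, the latter with 62.5% of its UMIs in 1 cell), with a median of -0.27. Hmox1 had 193 against 316 UMIs (log2 -0.63), the biliverdin reductase gene Blvrb 87 against 166 (-0.82) and the iron exporter gene Slc40a1 93 against 117 (-0.25). Vcam1, an adhesion molecule gene of iron-recycling macrophages, went the other way with 223 against 126 UMIs in 30 and 29 cells, a ratio of 1.86 (1.49 to 2.33), although 1 cell gave 42.1% of the non-implanted UMIs. The ferritin subunit genes Ftl1 and Fth1 differed in sign, with log2 ratios of -0.36 and 0.32.

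The remaining lists held few calls. Of 16 efferocytosis genes, which serve the uptake of dying cells, 1 was called higher: Havcr2, the TIM-3 receptor gene, had 32 against 12 UMIs in 22 and 9 cells. Itgav, an integrin subunit gene of the same list, had 122 against 247 UMIs, a log2 ratio of -0.92 inside the limit. Of 20 lysosomal genes 1 was called higher, the cathepsin L gene Ctsl, with 351 against 179 UMIs of which 1 cell gave 40.5%, and the median was 0.28. Of 17 glycolysis and hypoxia genes 1 was called higher, the oxidoreductase gene Ero1l, with 64 against 28 UMIs. Of 21 immediate early and heat shock genes 1 was called lower, the heat shock gene Hspa1a, with 122 against 310 UMIs in 27 and 38 cells and a log2 ratio of -1.24. Its ratio in granulocyte-poor members was inside the limit at -0.62. Of 15 MHC class I and immunoproteasome genes 0 were called, with a median of 0.04.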

How the data were processed

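One cochlear library per group, implanted and not, was made from CD11b-selected cells with the 10x 3' kit. The authors deposited UMI counts per gene and barcode, made with Cell Ranger 3.0.1 per the file headers. The submitters' processing notes name Seurat, mm10 and GRCm38. The gene annotation is not given in the sources used here. No count was normalised before deposit, and totals in genes were 19593003 and 21577033 UMIs. The members and gene lists were chosen with earlier results of these data known. Barcodes outside the limits on genes and mitochondrial share (82 and 59) were left out. UMIs were summed per library and class, divided by the class total (CPM), and compared as log2 of CPM plus 10 for genes with at least 20 UMIs over both libraries, called at a log2 ratio of 1. Poisson, Clopper-Pearson, conditional ratio and Newcombe intervals (95%) cover counting error only. A count of 0 allows up to 3 UMIs. Genes named beside list members were the 12 highest and 12 lowest called genes read in at least 5 cells, with at most 25% of UMIs in 1 cell and an interval that excluded a ratio of 1. For members against MHC class II high cells they were ordered by the smaller of both libraries' ratios and only part are printed. Subclusters came from Leiden clustering (resolution 0.8, 12 components of 1500 variable genes, 10 neighbours). Doublets were kept, and an alternative leaves out the highest Scrublet scores. Software was scanpy 1.11.5 with leidenalg 0.10.2, pandas 2.3.3, scipy 1.17.1 and numpy 2.4.6 on Python 3.11.15; edgeR 4.0.16 (trimmed mean scaling only, as an alternative) ran in R 4.3.3. Scripts were tested on simulated data. Positions are from GENCODE on GRCm38. Values of some genes are not reported here.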

Additional observations from a re-analysis of the deposited data

How the results depend on the processing

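No paired analysis was possible because each group is 1 library. The difference in the share of members was positive in 14 of 14 settings, and its interval included 0 in 12 of them, all but an MHC class II limit of 25 UMIs (1.04 points) and no Spp1 limit (1.58 points). The implanted share of 3.52% became 2.67% with at least 500 genes, 2.51% with at least 1000 UMIs, 2.51% with at least 10 C1q UMIs, 4.57% with no Spp1 limit, 2.38% for granulocyte-poor cells, 2.35% for those with at most 1% erythroid UMIs and 1.37% for those with at least 1000 UMIs. The non-implanted share of 2.79% became 2.25%, 2.05% and 1.88% under the first 3 of these, 2.11% and 3.59% with MHC class II limits of 25 and 100 UMIs, and 1.91%, 1.85% and 1.22% under the last 3. The number of genes called higher, 126, became 191 with the MHC limit of 25, 228 with no Spp1 limit, 199 for granulocyte-poor cells with at least 1000 UMIs, 313 when cells were weighted equally, 223 and 30 with pseudocounts of 2 and 50 CPM, and 70 with at least 50 UMIs. The number called lower, 157, became 243 without the highest doublet scores, 343 for granulocyte-poor cells, 356 for those with at least 1000 UMIs, 394 with the same weight per cell, 324 and 14 with pseudocounts of 2 and 50 CPM, 283 with at least 1 UMI and 72 with at least 50 UMIs. The split of higher against lower calls was 30 and 14 with a pseudocount of 50 CPM, 191 and 154 with the MHC limit of 25, 228 and 152 with no Spp1 limit, and 124 and 191 with totals that leave out granulocyte and erythroid markers. Gm9844 reversed, to a log2 ratio of -0.12, with the same weight for every cell. The causes were not tested. Over the 34 named genes that were called, 713 of 714 values kept their sign and 637 stayed past the 2-fold limit. Most of these genes were picked for extreme ratios in these same cells. Every setting reused or reweighted counts of the same 2 libraries. Keeping the sign was therefore largely built in and is not an independent check. The limits on granulocyte-poor cells by erythroid share and by depth, and the removal of shared barcodes, were chosen after seeing the data. Leiden resolutions of 0.4 and 1.2, also added then, gave 7 and 9 subclusters. With 1 library a group and 75 and 67 granulocyte-poor cells, single cells limit the precision of most genes, and in members with fewer than 1000 UMIs low genes were not detectable.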
